A study of Mus musculus with 81 samples.

Results

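Small nucleolar RNAs were followed in the hearts of male BXD mice, recombinant inbred strains whose genomes are mosaics of DBA/2J and C57BL/6J, and in both of these parents. The set holds every gene whose symbol starts with Snord (box C/D RNAs, 47 genes) or Snora (box H/ACA RNAs, 26 genes) among the probe sets with a single gene symbol. That gave 73 of 22180 measured genes, and none was removed for a low level. All mice were 29 weeks old and fasted overnight, and each of the 81 arrays held an even pool of total heart RNA from about 5 mice of 1 strain on 1 diet. There were 39 arrays from a high fat diet, with no composition stated in the labels, and 42 from chow (Harlan diet, fed for life per the shared protocol text). Both diets were available for 39 strains, namely 37 BXD strains and the parents DBA/2J and C57BL/6J. Another 3 BXD strains had a chow array alone. Because animals were pooled, the spread between mice is not seen, and p-values over strains measure the spread between pools.

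Small nucleolar RNAs work in the nucleolus as guides inside protein particles. Box C/D RNAs pair with ribosomal RNA and direct 2′-O-methylation by fibrillarin, whereas box H/ACA RNAs direct the change of uridine to pseudouridine by dyskerin. Most are cut out of introns of other genes, the hosts, many of which code for ribosomal proteins or other parts of the translation machinery, and some hosts make no protein at all. A few, such as Snord13 and Snord118, are transcribed from their own promoters. Modified ribosomal RNA is needed in all cells, including the heart muscle cell, where ribosome production sets the capacity for growth.

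Values are in the deposited units, in which the probe sets of an array average 8 with an SD of 2. The unit is not known to be a doubling, so differences are given in units without folds, and levels of different probe sets are not compared. The probe sets cannot tell a mature RNA from the unspliced host transcript around it. All 6 heart muscle markers (such as Myh6 and Tnnt2) were measured, and the mean of the 6 lay between 14.55 and 15.04 units on every array of the 39 strains. The mean over the 81 arrays of 13 members was no higher than 6.70 units, the 95th percentile of the 92 probe sets for ERCC spike-in RNA, and the labels do not say whether such RNA was added. The arrays of BXD100 had the highest mean over the members on both diets, and the counts of strain calls, intraclass correlations, likeness between genes and host pairs below are given with and without this strain, which was left out after the data were seen.

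Many of these RNAs differed between strains. An F test for strain in a limma model with diet and strain called 28 of 73 members at an adjusted p under 0.05 (38.4%), against 14.8% of all genes. Without BXD100 the same test called 23 members, all among those 28, against 14.5% of all genes. BXD100 had the highest strain mean of 21 of the 28 called members, and BXD65 the lowest of 13. In the sample order strains run by number with their 2 arrays side by side, and no batch entered the model. On high fat Snora33 had 13.20 to 14.12 units from BXD87 to BXD103, against 12.02 to 13.22 units from BXD43 to BXD85. On chow it had 12.93 to 14.65 against 12.15 to 14.26 units. How many members did so was not counted. For all results over strains, strain and place in the sample order cannot be told apart. The size of the strain effect was expressed as the intraclass correlation of a strain's high fat and chow arrays, which is 1 when they match exactly after the diet means are removed. With all 39 strains Snord53 passed 0.8 (0.927), a mark reached together with a called strain effect by 0.906% of all genes, and Snora28 lay just below it at 0.798 and Snord13 at 0.762. Without BXD100 the values were 0.931, 0.808 and 0.782 in that order, so that 2 members passed 0.8, against 0.915% of all genes. Snora28 was also at or over 0.8 in the BXD strains alone (0.8001) and after quantile normalization (0.801). The median was 0.249 over the members and 0.168 over all genes, and without BXD100 it was 0.206 and 0.169.

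Snord53, a box C/D RNA encoded on chromosome 17 inside Wdr43, a gene for a nucleolar protein of small ribosomal subunit assembly, was called between the parents. Its DBA/2J arrays read 12.3 units on high fat and 12.03 units on chow, against 9.19 and 9.535 units in C57BL/6J. The difference of 2.81 ± 0.381 units (SE, 2 arrays per parent) had an adjusted p of 1.51e-06 in limma. Strain means ran from 8.94 units in BXD55 to 13.2 units in BXD87, with a median of 9.71 units. The widest gap, of 0.878 units or 20.6% of the whole range, lay between BXD100 at 10.9 units and BXD43 at 10.02 units. Above it stood 15 strains, with 10.4 to 13.5 units on high fat and 11.1 to 13.5 units on chow, and below it 24 strains, with 8.98 to 10.03 units on high fat and 8.77 to 10.9 units on chow. On high fat the strains on either side did not overlap, and neither did they on chow, which is a description since they were divided by these values. Without BXD100 the gap was 1.21 units or 28.4% of the range, between BXD65 at 11.2 units and BXD43, with 14 strains above it and 24 below. Of the 37 BXD strains 14 had a mean nearer to DBA/2J and 23 nearer to C57BL/6J, and in 35 of the 39 strains the high fat and chow arrays differed by less than 1 unit. The strain with the widest difference was BXD43, with 9.10 units on high fat and 10.9 units on chow.

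Snord13, also called U13, guides the acetylation of a cytidine in the small subunit ribosomal RNA in human cells. It lies on chromosome 8, and no host gene was found for it in the RefSeq table. Its DBA/2J arrays read 12.1 units on high fat and 11.6 units on chow, against 7.12 and 8.76 units in C57BL/6J. This difference of 3.93 ± 0.825 units (SE, 2 arrays per parent) had an adjusted p of 0.0026 in limma. Leaving out the high fat array of C57BL/6J gave 3.26 units and ended the call (adjusted p = 0.102), and so did leaving out the high fat array of DBA/2J (3.5 units, adjusted p = 0.0807). The strain means of Snord13 ran from 6.34 units in BXD64 to 12.3 units in BXD87, with a median of 9.12 units. Their widest gap, of 0.963 units or 16.2% of the range, lay between BXD45 at 11.5 units and BXD44 at 10.5 units, with 5 strains above it and 34 below. The BXD strains lay beyond both parents in 14 cases, with 3 above DBA/2J and 11 below C57BL/6J.

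The 2 arrays of a strain matched less closely for Snord13 than for Snord53, and its residual SD of 0.880 units was the largest of the family. They differed by more than 2 units in 5 strains. BXD97 had 6.30 units on high fat and 9.20 units on chow, BXD44 had 9.16 and 11.9 units, and BXD100 had 8.30 and 10.97 units. The opposite order was seen in BXD62, with 9.40 units on high fat and 6.39 units on chow, and in BXD80, with 11.2 and 8.905 units. In 24 strains the arrays were within 1 unit of each other.

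Snora28, a box H/ACA RNA from an intron of the translation initiation factor gene Eif5 on chromosome 12, is described here because it lay just under the mark of 0.8, and it was chosen after its values were seen. Its strain means ran from 9.69 units in BXD66 to 11.9 units in BXD87, a narrower range than that of either Snord53 or Snord13. DBA/2J had 10.1 units on high fat and 10.7 units on chow, and C57BL/6J had 11.1 and 11.3 units. That difference of -0.811 ± 0.256 units (SE, 2 arrays per parent) was not called between the parents (limma, adjusted p = 0.087), and 15 BXD strains lay above both parents and 10 below both. Snora28 was called between strains by limma (adjusted p = 1.95e-09), with arrays within 1 unit of each other in 38 of 39 strains except BXD43, which had 9.95 units on high fat and 10.97 units on chow.

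**Figure D1:**
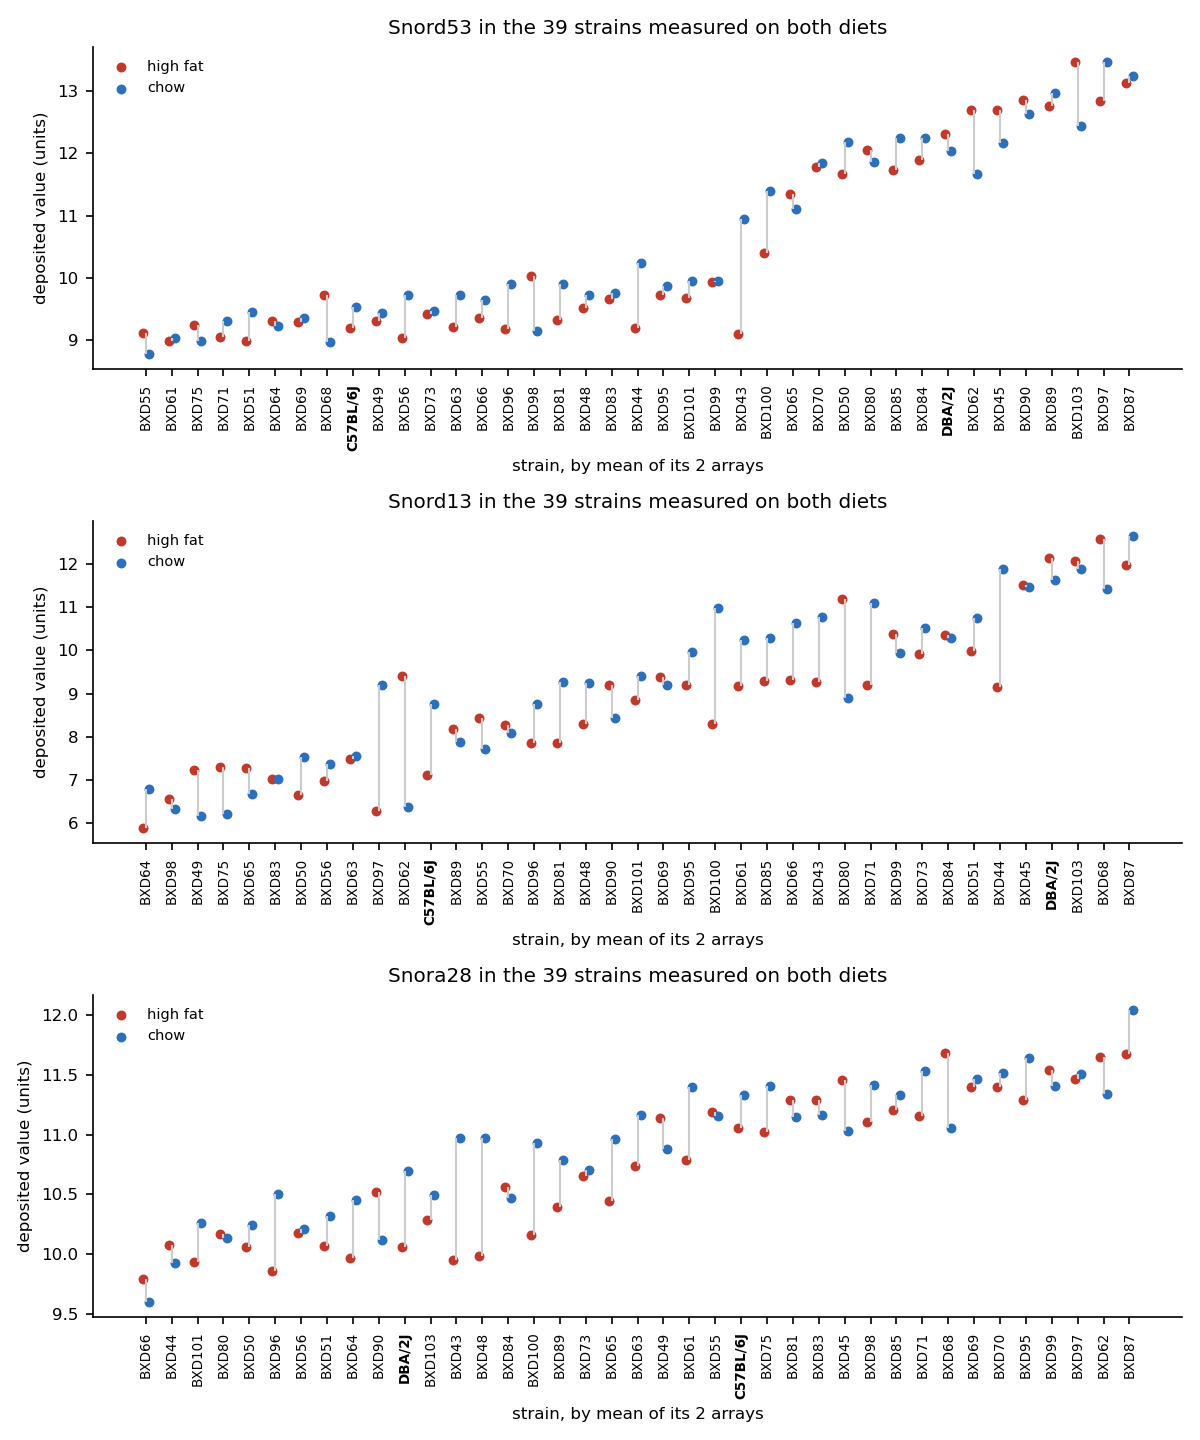
Deposited values (vertical axis, in units) of Snord53, Snord13 and Snora28 in the 39 strains measured on both diets, ordered by strain mean, with red points for high fat arrays, blue points for chow arrays and a grey line joining a strain's arrays. The widest gap between neighbouring strain means was 0.878 units for Snord53, 0.963 units for Snord13 and 0.368 units for Snora28, and long grey lines mark the wide differences of Snord13 in BXD97 and BXD62.

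The 12 further members with the highest intraclass correlation after Snord53 and Snord13 began with Snora28 and ended with Snord15a (0.523). Snord49b (0.709), Snord99 (0.705), Snora33 (0.635), Snord49a (0.630), Snord35a (0.624), Snord82 (0.615), Snord47 (0.595), Snord17 (0.577), Snord65 (0.538) and Snord69 (0.534) lay between them. The value of Snora33 depended on its probe set, being 0.494 with the mean over its probe sets and 0.356 with the one of lowest level. Without BXD100 all 12 were still called between strains, 10 of them with a lower intraclass correlation, from 0.473 for Snord69 to 0.808 for Snora28. None of these 12 was called between the parents. Snord49b had 11.96 and 11.6 units in DBA/2J on high fat and chow, against 11.5 and 11.8 units in C57BL/6J. Snord99 had 12.4 and 11.965 units in DBA/2J, against 11.96 and 12.06 units in C57BL/6J. The strain means of Snord49b ran from 11.1 units in BXD64 to 13.5 units in BXD100, and those of Snord99 from 11.8 units in BXD61 to 13.8 units in BXD100. For 9 of these 12 members BXD100 was the highest strain, the others being Snora28, Snord65 and Snord15a.

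Between the parents themselves 2 of 73 members were called by limma (2.74%), against 2.36% of all genes, and these were Snord53 and Snord13. Both were higher in DBA/2J, a direction called for 1.28% of all genes. At an unadjusted p under 0.05 the count was 6 of 73, against 12.96% of all genes, with Snora28, Snora41, Snord118 and Snord15a as the additional members. Point differences were positive for 49 members and negative for 24, and positive for 52.8% of all genes.

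Genes outside the family whose strain means were most like those of Snord53, over 39 strains, lay close to it on chromosome 17. Myom1, a protein of the sarcomere's M-band, had an r of -0.82, Emilin2, an extracellular matrix glycoprotein, -0.72, and Lpin2, a phosphatidate phosphatase, 0.63. Between Snord53 and these genes the RefSeq table lists 6, 4 and 5 protein-coding genes in that order. The host of Snord53 behaved differently. Strain means of Wdr43 ran only from 10.3 to 10.7 units, its intraclass correlation was 0.179, and it was not called between strains (limma, adjusted p = 0.386) or between the parents (difference 0.232 units, adjusted p = 0.455). Snord92, the other measured member inside Wdr43, had an intraclass correlation of -0.230 and arrays between 5.16 and 6.32 units on high fat and 4.92 and 5.75 units on chow.

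For Snord13 the most alike genes were Letm2, a paralogue of a mitochondrial inner membrane protein, with an r of -0.74, Rpl14, a ribosomal protein of the large subunit, with 0.69, and Adam9, a membrane-bound metalloprotease, with -0.68, each over 39 strains. Letm2 and Adam9 are on chromosome 8 like Snord13, with 30 and 37 protein-coding genes between, and Rpl14 is on chromosome 9. Letm2 and Adam9 were called between strains, but Rpl14 was not (intraclass correlation 0.150, limma adjusted p = 0.358). With strain and diet removed, Rpl14 had an r of 0.684 with the mean over all members. Rnf122, with no protein-coding gene between it and Snord13, ranked the fifth with an r of 0.66. For Snora28 the 3 most alike genes were all on chromosome 12, namely Klc1, a kinesin light chain, with an r of 0.82, Kif26a, a kinesin family member, with -0.74, and Atp5mpl, a small subunit of the ATP synthase, with 0.70. Its host Eif5 ranked the fourth with 0.60. Without BXD100 the r of Myom1, Emilin2 and Lpin2 with Snord53 were -0.83, -0.76 and 0.63, those of Letm2, Rpl14 and Adam9 with Snord13 were -0.75, 0.70 and -0.69, and those of Klc1, Kif26a and Atp5mpl with Snora28 were 0.82, -0.73 and 0.74. These correlations were picked as the highest of all genes and are given without a test.

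A minority of the small nucleolar RNAs changed on the high fat diet. Of 73 members 4 rose, 11 fell and 58 did not pass the test, so that 20.5% were called by limma, against 45.0% of all genes (23.8% higher and 21.2% lower). The median difference was -0.0536 units over the members and 0.00526 units over all genes, and 53 of 73 point differences were negative. The standard error of the difference was larger for members, with a median of 0.0680 units, against 0.0401 units for all genes. Among Snord genes 2 rose and 8 fell, and among Snora genes 2 rose and 3 fell.

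Snord52 fell furthest. This box C/D RNA lies in the noncoding gene 1110038B12Rik. It had 5.89 units in the lowest, 6.67 in the median and 7.52 in the highest strain on high fat, against 6.55, 7.26 and 8.815 units on chow. The ranges overlapped, but 36 of 39 strains were lower on high fat. The difference was -0.624 ± 0.0766 units (SE) with an adjusted p of 9.4e-09 in limma.

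Snora35, an RNA that sits in the serotonin receptor gene Htr2c and is best known from brain, was lower on high fat in 36 strains as well. Its lowest, median and highest arrays had 5.94, 6.455 and 6.99 units on high fat, against 6.29, 6.85 and 7.30 units on chow, a difference of -0.363 ± 0.0466 units (SE, limma adjusted p = 2.54e-08). Its mean over the 81 arrays, 6.68 units, was under the ERCC level given above. Of 4 brain markers 1 rose and 3 fell, and their mean ran from 7.34 to 8.01 units on high fat and from 7.48 to 8.14 units on chow. Their part in the difference of Snora35 was not tested.

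Snord66, from the translation initiation gene Eif4g1, had a median of 7.32 units on high fat, against 7.59 units on chow, and fell by 0.360 ± 0.0713 units (SE), being lower in 28 strains. Snord87, from the noncoding host Snhg6, fell by 0.302 ± 0.0789 units and was lower in 29 strains. Snord90, from the RNA-binding protein gene Rc3h2, fell by 0.301 ± 0.0514 units and was lower in 33 strains. Snord43, from the ribosomal protein gene Rpl3, fell by 0.289 ± 0.0562 units with 30 strains lower. Snora2b, from the chromatin regulator gene Kansl2, fell by 0.226 ± 0.0748 units, and Snord69, from the nucleolar GTPase gene Gnl3, by 0.207 ± 0.0810 units. Arrays of the 2 diets overlapped for all 15 called members. Without BXD100 Snord69 was no longer called (adjusted p = 0.0518 in limma). The remaining falls, those of Snord58b, Snora28 and Snord85, were between 0.147 and 0.186 units, and Snord43, Snord58b, Snord90 and Snora35 were the called members at or under the ERCC level.

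The largest rise was that of Snora75, a box H/ACA RNA from the nucleolin gene Ncl. It had a median of 9.07 units on high fat, against 8.77 units on chow, and was higher in 28 of 39 strains, with a difference of 0.233 ± 0.0636 units (SE, limma adjusted p = 0.00265). Snord11, from the gene of the box C/D core protein Nop58, rose by 0.218 ± 0.0689 units and was higher in 29 strains. Snora78, from the noncoding host Snhg9, rose by 0.156 ± 0.0534 units (26 strains), and Snord88c, from 2410002F23Rik, by 0.142 ± 0.0529 units (27 strains). Neither Snord53 nor Snord13 was among the called members.

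Control probe sets moved between the diets too. Of the 92 ERCC probe sets 37 (40.2%) were called by the same limma test, and the 95th percentile of their absolute difference was 0.247 units. Beyond that lay 8 members, all lower on high fat, of which Snord52, Snora35, Snord66, Snord87, Snord90 and Snord43 were called, and Snord13 (-0.328 units, adjusted p = 0.151 in limma) and Snora31 (-0.279 units, 0.198) were not. Markers of other cell types were called between the diets as well. All 3 measured markers of proliferating cells rose, with a mean of 7.71 to 9.00 units over arrays on high fat and 7.51 to 8.41 units on chow. Of 5 macrophage markers 3 rose (9.53 to 10.7 units on high fat, 9.625 to 10.5 units on chow), as did 3 of 5 fibroblast markers (11.2 to 11.9 units on high fat, 11.1 to 11.8 units on chow). Of 6 heart muscle markers 3 fell, of 4 endothelium markers 2 rose, and the 1 measured erythroid marker fell. None of 6 atrium and 5 liver markers was called. Among 5 skeletal muscle markers 1 rose and 1 fell, and the same held for 5 fat markers. Of all genes 23.8% were called higher and 21.2% lower. The part of these differences in those of the small nucleolar RNAs was not tested, and in RNA of whole hearts fewer cells of a type and less RNA per cell cannot be told apart.

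**Figure D2:**
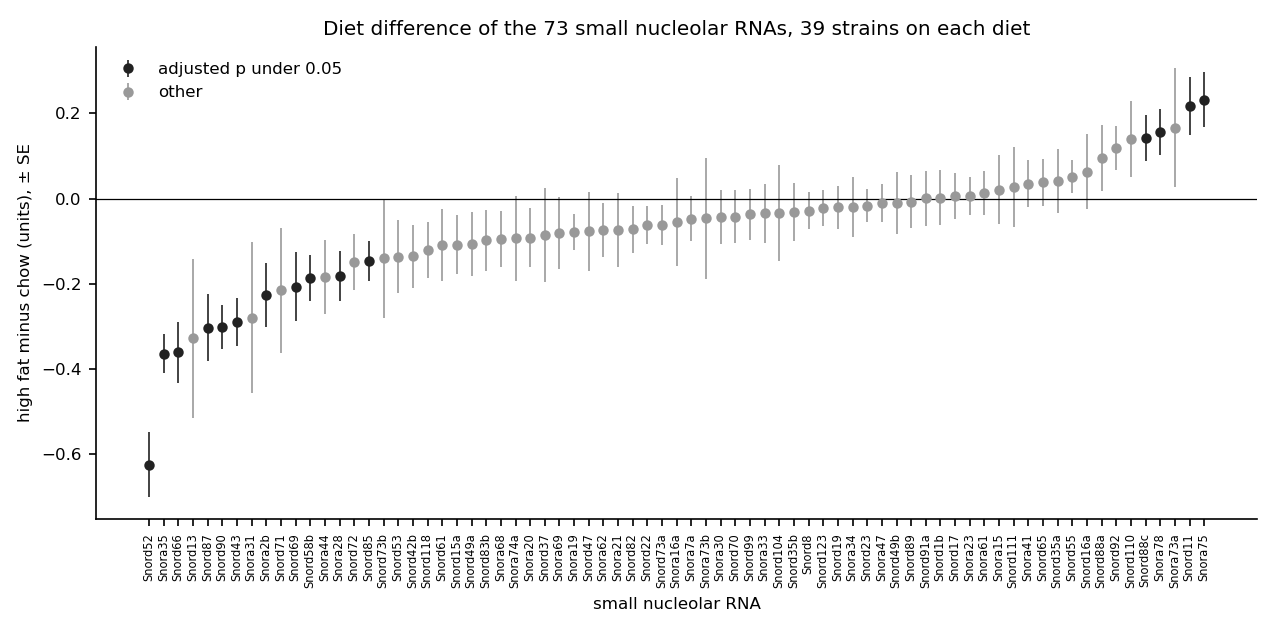
High fat minus chow difference of each of the 73 small nucleolar RNAs in units with its standard error, ordered from the lowest to the highest, over 39 strains on each diet. Black points passed an adjusted p of 0.05 (11 below 0 and 4 above), grey points did not, and Snord52 stands lowest at -0.624 units.

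Genes for the proteins that carry or make these RNAs changed in both directions. Of all genes 23.8% were called higher and 21.2% lower. Of 3 measured box C/D core proteins 2 fell, namely Snu13, which fell by 0.0735 units, and Nop58, which fell by 0.112 units. Of 4 box H/ACA core proteins Nhp2 fell by 0.146 units, whereas Dkc1, Nop10 and Gar1 did not pass the test. Among 13 assembly factors 4 rose and 2 fell, with Ruvbl2, an ATPase of the assembly complex, lower by 0.253 units, Hsp90aa1, a chaperone, higher by 0.268 units, and Coil, the scaffold of Cajal bodies, lower by 0.119 units. Of 14 genes for release from introns and trimming 2 rose and 5 fell, including the exosome subunit Exosc8, which fell by 0.145 units, and the decapping enzyme Dcp2, which rose by 0.475 units. For ribosomal RNA synthesis and processing 5 of 16 genes rose and 4 fell. Other small RNA genes were called as well, and of 484 microRNA genes 106 rose and 63 fell. Of 5 Scarna genes, guides for spliceosomal RNA in Cajal bodies, Scarna2 fell by 0.174 units, and of 4 Rnu genes the minor spliceosomal RNA Rnu12 fell by 0.248 units.

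Agreement with the host gene was examined next, since most members share a transcript with a host. The RefSeq table placed 69 members inside another gene. Small RNAs and predicted genes were not taken as hosts, which left 4 members without one (Snord13, Snord118, Snord89 and Snord104). The host was measured for 59 members, in 45 different host genes. Over the means of the 39 strains, Pearson's r of member and host ranged from -0.349 to 0.687 with a median of 0.156, and 44 of 59 were positive. Permutation of the strains (100000 draws, two-sided, adjusted over the 59 pairs) called 7 pairs by Pearson's r (11.9%), all positive, and 4 of these also by Spearman's rho. With the strains' residuals in place of their means 2 pairs were called, and without BXD100 the strain means gave 6.

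Snora7a and its host Rpl32, a ribosomal protein gene, agreed best. Their r was 0.687 and rho 0.697 over 39 strains, each with an adjusted permutation p of 0.00059, derived from the smallest p the draws can give, 1e-05. Without the 2 strains farthest from the host's median, BXD50 and BXD97, r was 0.649, and it was 0.505 over the high fat arrays and 0.744 over the chow arrays. Snora28 and Eif5 followed with an r of 0.602 and a rho of 0.534 (adjusted permutation p = 0.00148 and 0.0177), 0.571 without BXD44 and BXD55, 0.523 on high fat and 0.569 on chow. Over residuals after strain and diet neither was called, with an r of 0.436 for Snora7a and Rpl32 (adjusted permutation p = 0.0701) and 0.246 for Snora28 and Eif5 (0.337). Both of these pairs had a strain effect called in member and host, which held for 6 of the 59 pairs.

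Snora33 and Rps12, a gene for a protein of the small ribosomal subunit, had an r of 0.494 (adjusted permutation p = 0.0234) and a rho of 0.391 (0.106). Without BXD87 and BXD100 their r was 0.361, and without BXD100 alone the pair was no longer called (adjusted p = 0.0787). Over residuals after strain and diet the same pair had the highest r of all, 0.713. Snord73b and Rps3a1 had an r of 0.456 (adjusted permutation p = 0.0432) and a rho of 0.380 (0.115), which came to an r of 0.337 without BXD43 and BXD83. For Snora78 and Snhg9, the eighth pair by r, the values were 0.396 and 0.396 (adjusted p = 0.0975 and 0.106).

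Hosts with 3 or more measured members were the noncoding genes 2410006H16Rik, with Snord49a, Snord49b and Snord65, and Snhg12, with Snora16a, Snora44, Snora61 and Snord99. All 3 RNAs of 2410006H16Rik were called with it. Snord65 had an r of 0.475 and a rho of 0.467 (adjusted permutation p = 0.0361 and 0.0456), Snord49b 0.440 and 0.472 (0.0464 and 0.0456) and Snord49a 0.440 and 0.421 (0.0464 and 0.0801). All 3 calls ended after quantile normalization (adjusted permutation p = 0.0533, 0.0627 and 0.0871) and with the slope on the mean of 9 other small RNA genes removed (r of 0.294, 0.221 and 0.145, adjusted permutation p = 0.386, 0.514 and 0.684). Without BXD43 and BXD80 these r were 0.397, 0.428 and 0.399, and without BXD100 they were 0.508, 0.505 and 0.529. Over the high fat arrays they were 0.255, 0.2004 and 0.244, and none was called (adjusted permutation p = 0.372, 0.465 and 0.394), whereas over the chow arrays they were 0.522, 0.628 and 0.574 and all were called. The difference between diets was not tested. None of the 4 RNAs of Snhg12 was called with it, with r of 0.251 for Snora16a, 0.177 for Snora61, 0.156 for Snora44 and 0.068 for Snord99 (adjusted permutation p between 0.364 and 0.855). Leaving out DBA/2J and BXD68, the strains farthest from the median of Snhg12, gave 0.158 to 0.220.

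Promoter windows of 4 of the hosts named in the text are shown from 50 bases before to 50 bases after the annotated start. They come from RefSeq on GRCm38.p6, all on the plus strand. Snhg12 and Wdr43 had no called pair, and the ribosomal protein hosts of called pairs, Rpl32, Rps12 and Rps3a1, are not among the 4. Capitals mark the letters CTTT where they occur within 10 bases of the start. The windows are given because ribosomal protein genes and many hosts start transcription within a run of pyrimidines. The windows lie at chr4:132308628-132308727 for Snhg12, chr11:62602827-62602926 for 2410006H16Rik, chr17:71616165-71616264 for Wdr43 and chr12:111538051-111538150 for Eif5.
Snhg12: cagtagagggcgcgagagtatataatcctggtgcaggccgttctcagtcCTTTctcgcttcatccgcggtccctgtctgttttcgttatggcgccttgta
2410006H16Rik: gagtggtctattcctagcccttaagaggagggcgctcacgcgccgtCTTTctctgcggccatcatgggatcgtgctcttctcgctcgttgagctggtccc
Wdr43: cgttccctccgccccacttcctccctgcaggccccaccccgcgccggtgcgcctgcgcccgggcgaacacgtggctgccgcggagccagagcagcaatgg
Eif5: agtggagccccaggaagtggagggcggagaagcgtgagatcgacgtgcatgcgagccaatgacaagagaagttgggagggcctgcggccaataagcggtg
CTTT was found at the start on the transcribed strand in Snhg12 and 2410006H16Rik and on neither strand in Wdr43 and Eif5. It is present in 7.83% of the 32851 windows listed by RefSeq on the transcribed strand and in 7.36% on the other. The letters were picked after these sequences were read.

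The lowest r belonged to Snord37 and Eef2, the translation elongation factor gene, at -0.349 with a rho of -0.282 (adjusted permutation p = 0.166 and 0.274). Snord88a and 2410002F23Rik had -0.299, Snord71 and Ap1g1, an adaptor protein gene, -0.229, and Snord15a and Rps3 -0.213, none of them called. Snord53 and Wdr43, where the RNA spanned over 4 units between strains and the host under 1, had an r of 0.327 and a rho of 0.318 (adjusted permutation p = 0.207 for both).

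**Figure D3:**
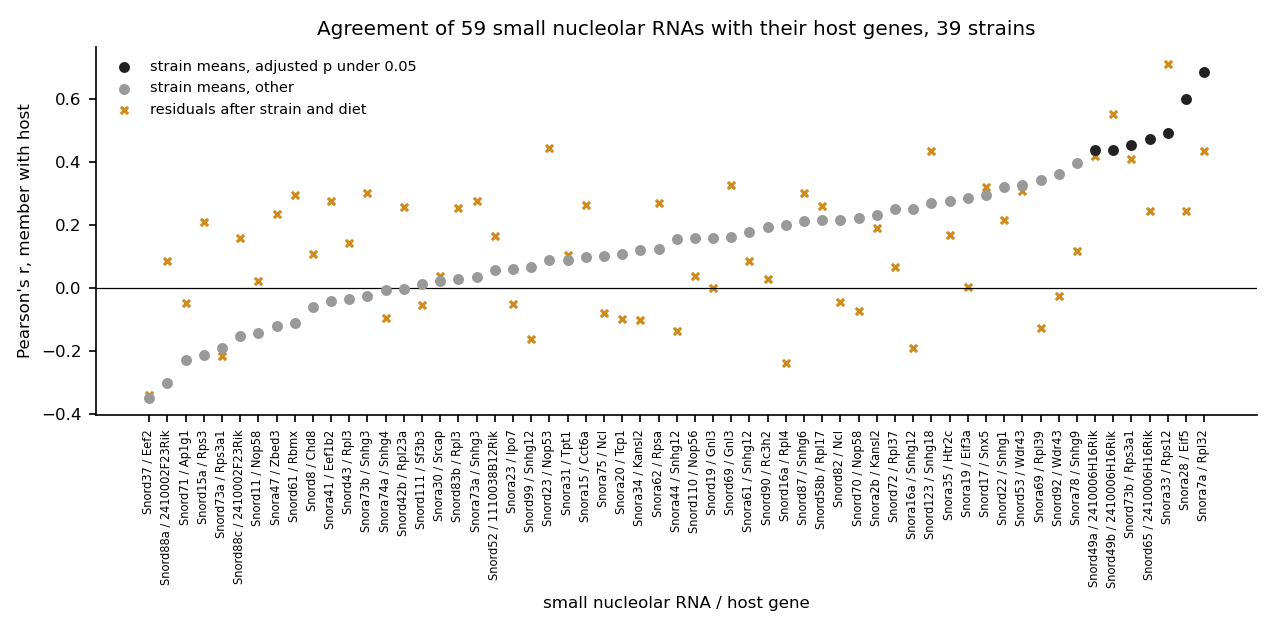
Pearson's r of each of 59 small nucleolar RNAs with its host gene over 39 strains, ordered by r over strain means, with black points for the 7 pairs called at an adjusted permutation p under 0.05, grey points for the others and orange crosses for r over residuals after strain and diet. Strain means gave r between -0.349 and 0.687, and the crosses scatter on both sides of them.

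On diet, 8 of the 59 pairs had a called member and a called host, and in 0 of these 8 did the RNA and its host change in the same direction. A called member was seen in 13 pairs and a called host in 26, against 45.0% of all genes called. Snord52 fell by 0.624 units while 1110038B12Rik rose by 0.160 ± 0.0315 units (SE), and Snora2b fell by 0.226 units while Kansl2 rose by 0.215 ± 0.0567 units. Snord58b and its ribosomal protein host Rpl17 differed by -0.186 and 0.183 units, Snord69 and Gnl3 by -0.207 and 0.103 units, and Snord90 and Rc3h2 by -0.301 and 0.0539 units. In the other direction, Snora78 rose by 0.156 units while Snhg9 fell by 0.314 ± 0.0344 units, Snord11 rose by 0.218 units while Nop58 fell by 0.112 ± 0.0448 units, and Snord88c rose by 0.142 units while 2410002F23Rik fell by 0.0836 ± 0.0309 units. Most of these differences were small. Of the 8 members only Snord52 and Snord90 passed 0.247 units, the 95th percentile of the ERCC probe sets, and of their hosts only Snhg9. In none of the 8 pairs did both member and host pass it. Over all 59 pairs the signs were opposite in 35 and the same in the other 24. The difference between member and host was not tested.

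**Figure D4:**
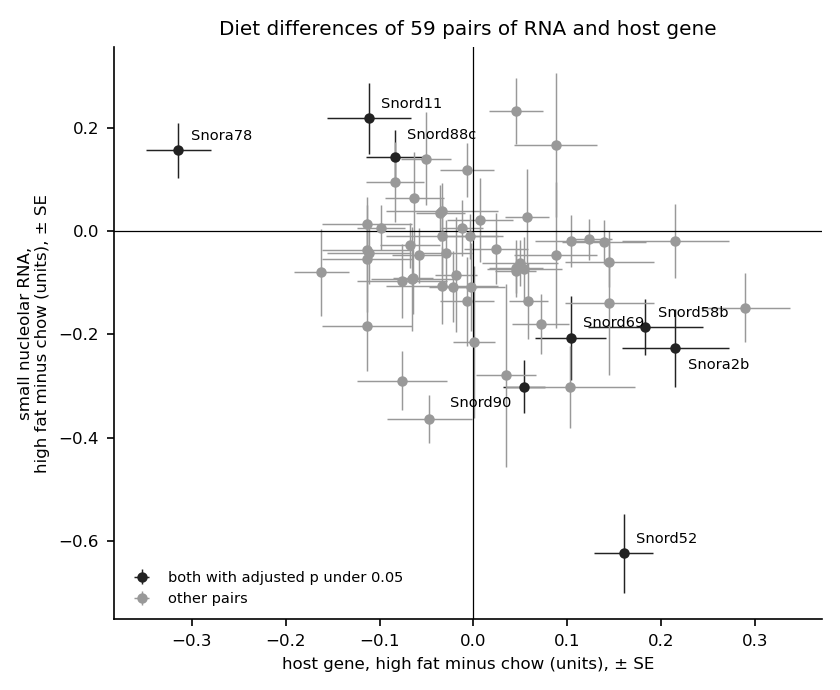
High fat minus chow difference of the small nucleolar RNA (vertical axis, units) against that of its host gene (horizontal axis, units) for 59 pairs, with standard errors. The 8 black points, where both passed an adjusted p of 0.05, all lie in the upper left or lower right of the plot, where RNA and host have opposite signs.

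Spread between pools was wide for the family. With 1 array for each strain and diet, this spread also holds any diet response that differs between strains. After strain and diet were removed the residual SD had a median of 0.315 units over members, against 0.179 units over all genes. Other small RNA genes had wide spreads too, with a median of 0.337 units over 4 Rnu, 0.283 units over 5 Scarna and 0.238 units over 484 microRNA genes. Among the 73 members the residual SD was above the median of all genes in 71 and above their 90th percentile (0.268 units) in 48. Snord13 (0.880 units), Snora31 (0.832 units), Snord71 (0.691 units), Snora73b (0.665 units) and Snora73a (0.657 units) had the largest values, and Snord55 (0.173 units) and Snord23 (0.173 units) the smallest.

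Much of this spread was shared. Among the 2628 pairs of members, residuals had a median r of 0.238, against 0.006 among all genes, and 19.1% of pairs had an r over 0.5, against 0.314%. Without BXD100 the median over members was 0.226. Members share array, amplification and partly host, so these values are a description. Pairs of Snora genes had a median r of 0.423, pairs of Snord genes 0.184 and mixed pairs 0.253. For 40 members r with the mean of all others exceeded 0.5, led by Snord89 (0.887), Snora7a (0.882), Snord49b (0.880) and Snord47 (0.865). Snord53 (0.811), Snord13 (0.776) and Snora28 (0.630) followed the others as well once strain was removed. Only 5 members had a negative r, Snord92 being the lowest at -0.276.

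Pairs from the same host, 18 in all, had a median r of 0.404, against 0.236 for the other pairs. Snora73a and Snora73b, copies of the U17 RNA inside Snhg3 that takes part in cutting the ribosomal precursor, had the highest r, 0.975, and being close copies they may be read by each other's probes. Snora16a and Snora44 of Snhg12 followed with 0.831, although neither tracked Snhg12 over residuals (-0.189 and -0.137). At the other end Snord53 and Snord92 of Wdr43 had -0.400.

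The mean over the 73 members ran from 8.36 units in BXD64 through a median of 8.79 units to 9.19 units in BXD100 on high fat, and from 8.43 units in BXD65 through 8.80 units to 9.81 units in BXD100 on chow. The mean over strains was 8.79 ± 0.222 units on high fat and 8.86 ± 0.282 units on chow (SD, n = 39), a paired difference of -0.0707 ± 0.271 units (SD), negative in 25 strains. The arrays of BXD43 differed most, with 8.85 units on high fat and 9.62 units on chow.

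**Figure D5:**
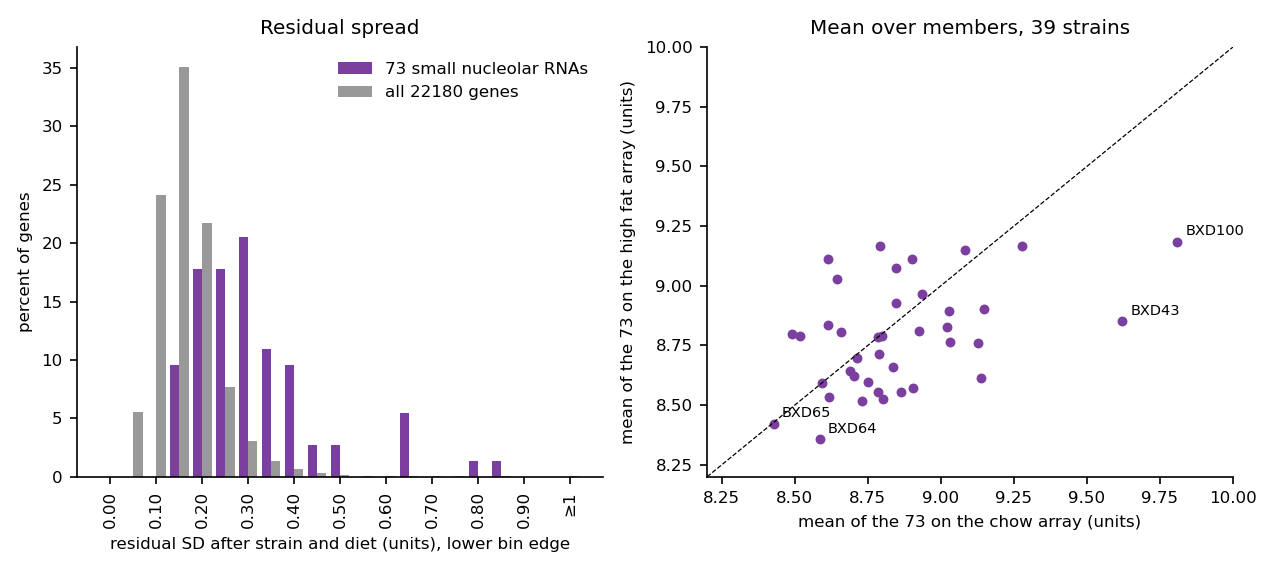
Left, residual SD after strain and diet in units (horizontal axis, bins of 0.05) as percent of genes for the 73 small nucleolar RNAs in purple and all 22180 genes in grey. Right, the mean of the 73 RNAs on the high fat array (vertical axis) against that on the chow array (horizontal axis) of each of 39 strains, with a dashed line of equal values and BXD100 at 9.19 and 9.81 units.

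Other small RNAs went with the family mean. Over residuals its r with the mean of 9 Scarna and Rnu genes was 0.883, and over strain means 0.843. Among these genes is Rnu3a, a U3 RNA that is itself a box C/D small nucleolar RNA despite its symbol. Of the 20 genes outside the family with the highest r, 6 were small RNAs of other classes, including the Y RNA Rny1 (0.792), Scarna2 (0.770) and the 5S ribosomal RNA gene n-R5s136 (0.748). The top 2 were Ep400, a chromatin remodeller whose gene holds the small nucleolar RNA LOC115490290, at 0.847 and Ptcd3, a mitochondrial ribosome protein whose gene holds Snord94, at 0.822. A small nucleolar RNA lies inside 4 of these 20 genes, against 1.69% of all genes outside the family. Among the 4 is Rps12 (0.724), host of Snora33, which is itself part of the family mean. MicroRNA genes had a median r of 0.0274 over 484 genes. The 23 background probe sets of the array had a median r of 0.271 and a highest of 0.664, and the 49 measured markers of 11 cell types or tissues lay between -0.461 and 0.331. With the mean of the 9 genes as a covariate in the limma model, chosen after the data were seen, 21 of the 28 strain-called members were called and no others, against 14.2% of all genes. Intraclass correlations were then 0.965 for Snord53, 0.856 for Snord13 and 0.856 for Snora28, all above 0.8. The median residual SD of members with the slope on that mean removed was 0.259 units, and the median pairwise r 0.0878.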

How the data were processed

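The deposited score of each probe set was made by the authors with Affymetrix Expression Console per the submitters' processing notes, with no version named. No source used here states its log base or slope, and log2 values had been planned for. The 41345 probe sets of an array average 8 with an SD of 2, so a shift common to most genes is lost. Per the labels' protocols, RNA was extracted with Trizol, pooled, cleaned on a silica column and amplified as total RNA. Such columns are made for longer RNA, and the members measure 48 to 221 bases in RefSeq (median 83.0). Diet comes from the treatment label, since the shared protocol text names chow alone.

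The platform's gene table named 23521 probe sets with 1 symbol. The highest by mean over 81 arrays stood for a gene, and the 73 members had 75 probe sets. Another 43 family probe sets with several symbols were not used, which leaves 27 symbols not analysed here. Members and lists were chosen with earlier results of these data known.

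limma 3.58.1 in R 4.3.3 (lmFit, eBayes, array weights with statmod 1.5.0) fitted diet and strain to 78 arrays of 39 strains, with Benjamini-Hochberg adjustment over 22180 genes, and was tested on simulated data. Strain pairs the arrays by label. The median r of deviations from the diet mean was 0.248 within strains and -0.00927 between, and r was over 0.1 in 37 of 39 strains. Parents were a contrast of that model. The host was the shortest RefSeq gene (GRCm38.p6) around a member that is not a small RNA or a predicted gene. The table gives no strand, so the planned strand condition was dropped and some hosts may lie on the other strand. All 73 members matched by Entrez identifier.

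Named are Snord13, Snord53 and the 12 further strain-called members of highest intraclass correlation, up to 8 diet-called rises and 8 falls, up to 6 parent differences each way, the 8 highest and 4 lowest host pairs, hosts with 3 or more members, and the 3 genes most like each strain-fixed member. Alternatives changed the strain term, variance model, weights, scaling, dim genes, probe set, strains, parent arrays and correlation measure. A small RNA covariate and the removal of BXD100 were added after seeing the data.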

Additional observations from a re-analysis of the deposited data

How the results depend on the processing

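The number of arrays limits the precision, and no technical replicate shows how much of the spread arises at the array. Without the strain block, the pairing of arrays by strain, 13 members were called between the diets on 78 arrays and 14 on all 81, 12 of them in each case among the 15 called with it, and Snord69 (adjusted p = 0.168 and 0.221), Snora28 (0.268 and 0.252) and Snord88c (0.0681 and 0.0801) lost their limma call. Under the other alternatives all 15 named differences kept their direction, and only Snord69 lost its call, with the small RNA covariate (adjusted p = 0.162) and without BXD100 (0.0518). Keeping only genes at or above the median level left 43 members, of which 6 were called between the diets, 3 of them lower. This compares with 42.6% of the genes so kept. Of the called falls, Snord52, Snora35, Snord66, Snord90, Snord43, Snora2b, Snord58b and Snord85 had a mean under that level (8.18 units) and were not kept. Of the called rises, this held for Snora78. Strain calls ranged from 21 to 31. Keeping only genes at or above the median level gave 25 of 43 members, against 33.7% of the genes so kept. Leaving out each parent array in turn gave 1 to 2 members called between the parents, with the difference of Snord13 between 3.26 and 4.61 units and that of Snord53 between 2.60 and 3.02 units. The count of 7 called host pairs moved by over 1.5 times under 6 alternatives. Snora7a with Rpl32 and Snora28 with Eif5 were called under all of these but residuals. There were 4 over high fat arrays, 2 over residuals, 4 after quantile normalization, 4 with the mean over probe sets, 4 with Spearman's rho and 3 with the small RNA slope removed, and the cause was not tested. Reversed in sign were Snord71 and Ap1g1 (0.0012) and Snord15a and Rps3 (0.0473) over chow arrays, and Snord88a and 2410002F23Rik (0.0882) and Snord15a and Rps3 (0.211) over residuals. With the small RNA slope removed Snord15a and Rps3 reached an r of -0.564 (adjusted permutation p = 0.00433).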
